A study of Rhodotorula toruloides with 36 samples.

Results

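The red yeast Rhodotorula toruloides, a basidiomycete, accumulates lipid and can use sugars released from plant biomass. Cells turn acetate into acetyl-CoA with acetyl-CoA synthetase, and acetyl-CoA feeds the tricarboxylic acid cycle, the glyoxylate cycle and the synthesis of fatty acids, sterols and carotenoids. In lipid-storing yeasts a shortage of nitrogen is known to shift carbon from growth to lipid. The comparison described here asks which mRNAs differ between cultures with and without acetate when nitrogen is plentiful and the culture is old.

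The series holds 36 mRNA libraries of strain IFO0880 in 12 groups of 3 biological replicates, and 6 of the 36 are compared here. All sample titles begin with Rt88, a prefix that the titles do not explain. They are the 3 high-nitrogen cultures given 2 g/L acetate and the 3 high-nitrogen cultures given none, all sampled at 88 h. For high nitrogen the labels disagree, since the treatment protocol states 5 g/L of ammonium sulfate but the design text 10 g/L. All cultures of the series were started from 3 colonies grown in glucose medium, each washed pellet being shared among 4 flasks. The carbon source of the sampled cultures is not in the labels, and the series title names xylose. The other groups, used only for contrast, are the same media at 48 and 64 h and low-nitrogen cultures (0.1 g/L ammonium sulfate, with 0.75 g/L yeast extract in the design text) at 48, 64 and 88 h. The catalogue has 8490 genes, and the comparison covers the 8314 left after the removal of 176 with low counts. No table at hand pairs the identifiers of this gene catalogue with gene names, so genes are given by catalogue number and scaffold position in assembly version 4 of the strain, without a function.

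The 3 libraries without acetate held 26701688, 21449002 and 15297137 counts over annotated genes, and the 3 with acetate 22944582, 63311529 and 48182835. A level is given as CPM, a gene's counts scaled to a common library size with TMM factors, or as RPKM, which is CPM per kilobase of exon, where genes are compared with each other. These levels are relative to the other mRNAs of a whole culture and, because of the TMM factors, are not plain shares of a library's counts. A change in the share of cells that express a gene, a change per cell and a change in total mRNA per cell therefore cannot be told apart. Replicate 2 without acetate stood apart from replicates 1 and 3 of its group. It had 418 and 300 genes at least 2-fold away from theirs, whereas replicates 1 and 3 differed that much in 60 genes and the 3 acetate libraries in 25 to 71. The median gene had an SD of 0.179 log2 CPM among the libraries without acetate, 0.069 without replicate 2, and 0.067 among the acetate libraries.

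Acetate was associated with a change in most of the transcriptome. By edgeR's quasi-likelihood test 6287 genes differed (75.6%), 3226 higher with acetate (38.8% of those tested) and 3061 lower (36.8%), at a threshold of 0.05 for the Benjamini-Hochberg adjusted p. Calls with a change of at least 2-fold comprised 1067 higher genes (12.8%) and 1189 lower genes (14.3%), named here the raised and the lowered genes. The split rests on the scaling. With library totals alone 1642 genes were higher and 4850 lower, and the 2-fold counts were 447 and 2252, while the median log2 fold change of all genes was 0.04 with TMM and -0.43 with totals. Without replicate 2 of the no-acetate group the 2-fold counts were 978 and 1113.

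Most changes were moderate. The median raised gene had 2.62 times the level with acetate, and the median lowered gene fell 2.78-fold. Changes of at least 4-fold were found for 151 higher and 257 lower genes, of at least 8-fold for 33 and 40, and of at least 16-fold for 13 and 9. The CPM of the 3 acetate libraries did not overlap those of the other 3 for 6423 genes (77.3%), among them 1065 of the 1067 raised and 1180 of the 1189 lowered genes, which the choice of these genes favours. The raised genes took 17.8% to 18.7% of all counts without acetate and 36.2% to 36.3% with it. The lowered genes took 7.46% to 8.49% without acetate and 2.02% to 2.04% with it.

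At least 32-fold changes were rare, at 5 higher genes and 1 lower gene. The lower gene was mRNA_4664 and one of the higher genes mRNA_6044, both described with the differences between media. Another pair among the higher genes was picked after their values were seen. Of these, mRNA_5930 (scaffold 5, 1261131 to 1261763) had 1, 0 and 0 counts in the libraries without acetate and 172, 306 and 198 counts with it. The ratio of its pooled scaled counts was 439.7, with a 95% exact interval of 78.7 to 17393 that covers counting error only. Likewise mRNA_8482 (scaffold 9, 1328338 to 1332033) had 5, 2 and 1 counts without acetate and 257, 481 and 303 with it (log2 fold change 6.45, SE 0.50, edgeR adjusted p = 3.63e-12).

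The genes that moved the most mRNA per length were chosen as those with the largest difference in RPKM among the raised and lowered genes. mRNA_4336 (protein 12704, scaffold 2, 1937098 to 1938973, 9 exons) stood at 2382, 2674 and 2460.1 CPM without acetate and at 6282, 6649 and 6575 CPM with it. All 3 acetate libraries lay above the other 3, and its mean level per length went from 2177 ± 131 to 5649 ± 169 RPKM (SD, n = 3). The log2 fold change was 1.38 (SE 0.12, edgeR adjusted p = 4.42e-11). mRNA_4325 (protein 12693, scaffold 2, 1912049 to 1914687, 10 exons) had 3795, 2808 and 3284 CPM without acetate and 8764, 8769 and 8934 CPM with it. Its log2 fold change was 1.42 (SE 0.11, edgeR adjusted p = 4.17e-12). In low nitrogen at 88 h the same gene was lower with acetate (log2 fold change -0.42, adjusted p = 0.00213), and the difference between the effects was 1.84 (SE 0.16, adjusted p = 8.31e-11).

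Among the lowered genes, mRNA_2779 (protein 11147, scaffold 15, 191338 to 193074, 7 exons) had 1337, 1865 and 1636 CPM without acetate and 726, 758 and 739 CPM with it. Its log2 fold change was -1.12 (SE 0.13, edgeR adjusted p = 5.2e-09). A fall of similar size was measured in low nitrogen at 88 h, at -1.05, and the difference of -0.07 (SE 0.18) did not pass the test. mRNA_4351 (protein 12719, scaffold 20, 11063 to 11629, 2 exons) had 699.6, 750.0 and 695 CPM without acetate and 337, 342 and 330.1 CPM with it. The groups did not overlap, and the log2 fold change was -1.09 (SE 0.15, edgeR adjusted p = 1.33e-07). Its effect differed from that at 48 h by -1.51 (SE 0.21) and from that in low nitrogen by -1.26 (SE 0.21). With library totals alone the log2 fold changes of these genes were 0.90 for mRNA_4336, 0.96 for mRNA_4325, -1.60 for mRNA_2779 and -1.56 for mRNA_4351, so their directions held.

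**Figure D1:**
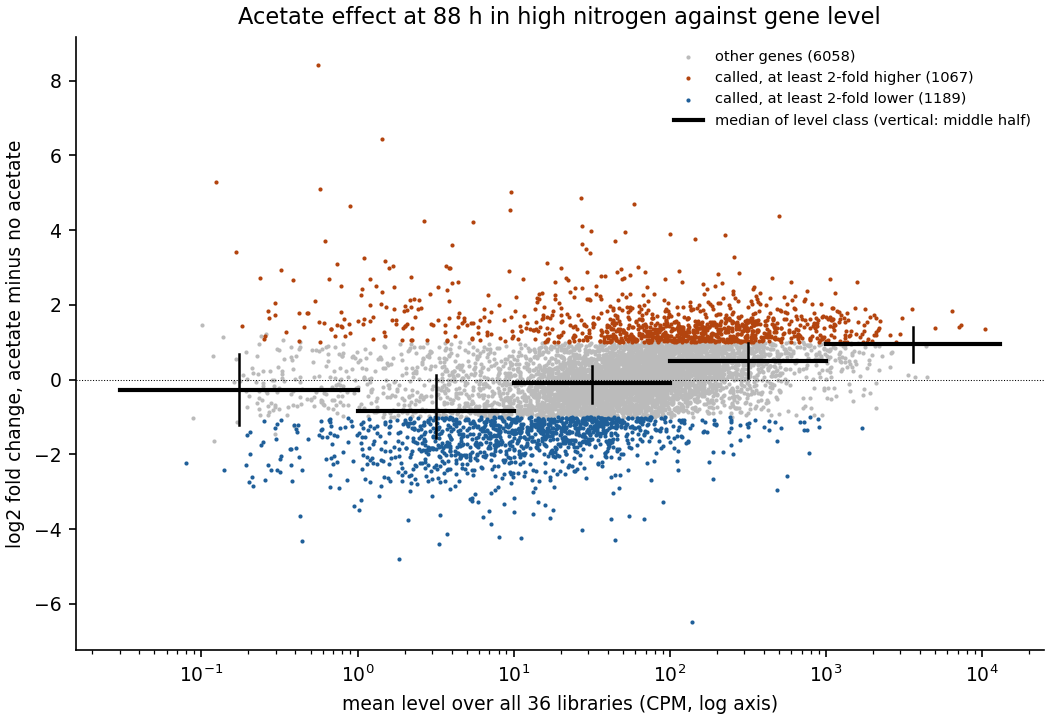
Log2 fold change with acetate in high nitrogen at 88 h (vertical axis) against the mean level over all 36 libraries in CPM (horizontal log axis), 1 point per tested gene. Horizontal bars are medians of 5 level classes and vertical bars their interquartile ranges. The medians rise from -0.85 at 1 to 10 CPM to 0.95 at 1000 CPM or more.

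The direction of the change went with the level of the gene. Genes at 1 to 10 CPM on average over the series had a median log2 fold change of -0.85, and 43.8% of them were among the lowered genes. At 10 to 100 CPM the median was -0.10, at 100 to 1000 CPM it was 0.51, and among the 150 genes at 1000 CPM or more it was 0.95. Of those 150 genes 71 were raised (47.3%) and 1 was lowered (0.667%). Genes under 1 CPM, where counts are few, had a median of -0.29. With library totals alone every class shifted down, to -1.33, -0.57, 0.04 and 0.49 from 1 to 10 CPM upwards, and the order of these 4 classes was the same. When the classes were set on the 30 other libraries alone, the medians from 1 to 10 CPM upwards were -0.86, -0.10, 0.51 and 0.94. Per length, with classes of 1 to 10, 10 to 100, 100 to 1000 and at least 1000 RPKM, they were -0.76, 0.02, 0.64 and 0.90. The earlier times in high nitrogen had the same order of the CPM classes. From 1 to 10 CPM upwards the medians were -0.37, -0.13, 0.12 and 0.66 at 64 h, and -0.24, -0.04, 0.11 and 0.40 at 48 h. In low nitrogen the medians from 1 to 10 CPM upwards were -0.18, 0.04, -0.03 and -0.23 at 48 h. They were -0.09, -0.03, 0.11 and 0.03 at 64 h, and -0.22, 0.01, 0.09 and -0.20 at 88 h. At 64 and 88 h the order thus held up to 100 to 1000 CPM but not at 1000 CPM or more.

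The same pattern was read within each library, where scaling plays no part. The median log2 CPM of the genes of 100 to 1000 CPM exceeded that of the genes of 1 to 10 CPM by 5.91, 5.90 and 6.01 in the acetate libraries. Without acetate the gap was 4.99, 4.36 and 5.01, so the groups did not overlap and replicate 2 was the lowest. The difference between the medians of the fold changes of these classes was 1.36, and 1.11 without that replicate. Replicate 2 itself differed from replicates 1 and 3 along the same axis, with a median of 0.41 log2 units above them for genes of 1 to 10 CPM and -0.19 for genes of 100 to 1000 CPM. The part of this library's spread in the comparison was not tested beyond leaving it out.

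Read against all 36 libraries, the cultures without acetate lay at the edge of the range. They had 59 to 64 genes at 1000 CPM or more, against 159 to 161 in the acetate libraries of the same time. Among the other 33 libraries only replicate 2 of the high-nitrogen cultures without acetate at 64 h, with 63, came as low. Genes at 10 CPM or more numbered 6989 to 7119 without acetate, above the 6913 of the highest other library. Genes under 1 CPM numbered 261 to 305, below the 309 of the lowest other library. These counts rest on the scaling, since a higher TMM factor lowers the CPM of every gene in a library. The factors were 1.263 to 1.384 without acetate, the highest of the 36 libraries, and 0.9438 to 0.9547 with it. Counts at these limits with library totals alone were not made. The interquartile range of log2 CPM was 2.05 to 2.35 without acetate and 2.86 to 2.90 with it. The top 10 genes took 3.84% to 4.02% of counts without acetate and 4.53% to 4.70% with it.

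**Figure D2:**
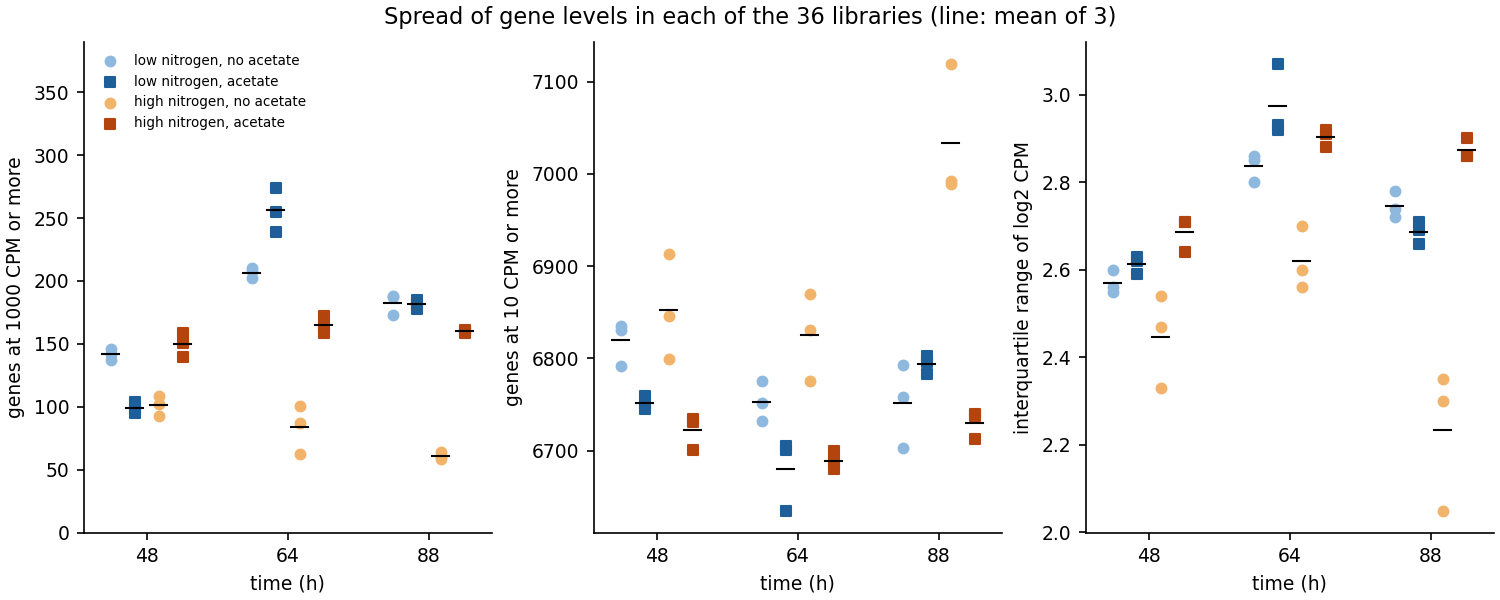
Number of genes at 1000 CPM or more, number of genes at 10 CPM or more, and interquartile range of log2 CPM (vertical axes) in each of the 36 libraries by time in hours, with colours for the 4 media and a line at each mean of 3. High-nitrogen cultures without acetate at 88 h are lowest in the first panel, at 59 to 64 genes, apart from a library at 63 genes at 64 h, and highest in the second, at 6989 to 7119 genes. The numbers of genes in these panels rest on the TMM scaling of CPM.

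Gene structure also differed between raised and lowered genes. Lowered genes had a median of 4 exons and a coding length of 1011 bp, raised genes 6 exons and 1209 bp, and all tested genes 5 exons and 1233 bp. Of the genes with 1 exon 24.2% were lowered and 10.3% raised, whereas of the genes with 11 to 19 exons 7.48% were lowered and 12.9% raised. Of genes with a coding length of at least 3000 bp 2.51% were lowered, against 20.1% of genes of 500 to under 1000 bp. The shortest genes, under 500 bp, were lowered in 15.8% and raised in 15.6% of cases.

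Longer genes also had higher CPM, with a median of 107 at 3000 bp or more and of 30.6 from 500 to under 1000 bp, so the classes were read within levels. Among genes of 10 to 100 CPM alone, 3.74% of those of at least 3000 bp and 14.6% of those of 500 to under 1000 bp were lowered. Among genes of 100 to 1000 CPM, 33.8% of those of 500 to under 1000 bp were raised against 11.6% of those of at least 3000 bp. The share raised at 10 to 100 CPM was 6.61% of the longest genes and 7.59% of those of 500 to under 1000 bp, and the share lowered at 100 to 1000 CPM was 1.52% and 5.64%. By exon number, 17.8% of 1-exon genes and 13.8% of genes with 2 to 5 exons were lowered at 10 to 100 CPM. For 6 to 10, 11 to 19 and 20 or more exons the shares were 11.1%, 9.38% and 10.8%. The shares raised at this level were 10.3%, 6.06%, 8.06%, 9.38% and 13.5% from 1 exon to 20 or more. At 100 to 1000 CPM 29.9% of genes with 2 to 5 exons, 23.9% with 6 to 10 and 15.2% with 11 to 19 were raised. The share was 10.3% with 20 or more, and 2 of the 25 genes with 1 exon were raised (8.0%). The shares lowered there were 4.0%, 3.37%, 2.8%, 3.42% and 3.45% from 1 exon to 20 or more. At 1 to 10 CPM the shares lowered did not fall steadily with exon number, at 33.9%, 46.2%, 43.8% and 33.3% from 1 exon to 11 to 19 exons. With library totals alone the median of genes of at least 3000 bp went from 0.24 to -0.22.

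By place, raised and lowered genes were spread over the large scaffolds. The outermost 10 genes at the ends of large scaffolds were lowered in 29 of 345 cases (8.41%), against 14.5% of the inner genes, and were raised as often, at 12.8% in either place. Across neighbouring pairs Pearson's r of the log2 fold changes was 0.162 for 2282 divergent pairs, 0.151 for 3618 pairs on the same strand and 0.031 for 2249 convergent pairs. These are descriptions across genes, which share libraries and are not replicates.

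Runs of at least 4 adjacent tested genes changed 2-fold in the same direction numbered 7 for higher genes (29 genes) and 8 for lower genes (35 genes). With 12.8% of all tested genes raised and 14.3% lowered, some runs would arise in a random gene order. Their number was not set beside these. The longest run of higher genes had 5 members on scaffold 6, 307499 to 318876, with log2 fold changes of 1.03 to 1.56. A run of 4 on scaffold 3, 1008050 to 1014528, reached 4.53, although 2 of its genes overlap a neighbour on the same strand and may share reads. A run of 4 on scaffold 10, 393596 to 399987, had a median of 1.54. Of the lower runs, 5 genes on scaffold 14, 664416 to 670465, went from a median of 8.57 to 3.16 CPM, and 2 of them overlap a neighbour on the opposite strand, whose reads cannot be told apart where strand was not counted. On scaffold 5, 291792 to 301534, 5 genes went from a median of 18.1 to 4.18 CPM, and on scaffold 9, 34353 to 40571, 5 genes from 11.1 to 3.46 CPM. Scaffold 20 is short, and 4 of its 5 tested genes were lowered, from mRNA_4351 through mRNA_4354. This was not particular to the comparison. The 5 genes had a median log2 fold change of -1.20 here and of -1.22 to -0.96 in the 5 other comparisons of acetate with none. Of the 4 genes, 1 (mRNA_4351) had an effect that differed from that at 48 h and from that in low nitrogen.

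The acetate effect at 88 h was set beside those at earlier times, which use no library in common with it but may share its flasks. At 64 h in high nitrogen 730 genes were at least 2-fold higher (8.78%) and 784 lower (9.43%), and at 48 h 918 (11.0%) and 990 (11.9%). Of the raised genes 379 were also raised at 64 h, which is 35.5% of the raised genes and 51.9% of those raised at 64 h. For the lowered genes the overlap was 480, or 40.4% and 61.2%. At 48 h the overlaps were 258 genes (24.2% and 28.1%) and 322 genes (27.1% and 32.5%). Across the 8314 genes Pearson's r between the effect at 88 h and those in high nitrogen was 0.629 for 64 h and 0.217 for 48 h.

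Changes of 2-fold at all 3 times were called for 159 raised and 198 lowered genes. At 88 h alone, 589 genes were raised and 585 lowered by this measure. Of these, 506 and 425 also had an effect beyond those at 48 and at 64 h by the tests of the differences. Those tests use the same 6 libraries, and the choice of these genes favours such a result. Of all genes, 33.8% had a higher effect at 88 h than at 48 h and 28.3% than at 64 h. For a lower effect the shares were 34.0% and 23.9%. The share of all genes beyond both times was not computed. At least 2-fold changes in the opposite direction were called at 48 h for 136 raised genes (12.7%, against 11.9% of all genes) and 75 lowered genes (6.31%, against 11.0%). At 64 h they were called for 18 raised genes (1.69%, against 9.43%) and 12 lowered genes (1.01%, against 8.78%).

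The courses of both arms over time are given as differences of mean log2 CPM, without a test. From 48 to 88 h in high nitrogen the raised genes had a median log2 change of 0.56 with acetate and of -0.43 without. For the lowered genes the medians were -0.43 with acetate and 0.69 without. Among the raised genes 342 (32.1%) were at least 2-fold higher at 88 h than at 48 h with acetate, against 11.3% of all tested genes, and 275 (25.8%) at least 2-fold lower without it, against 7.23%. Both held for 91 of them and neither for 541. Among the lowered genes 264 (22.2%) were at least 2-fold lower with acetate, against 9.2% of all, and 373 (31.4%) at least 2-fold higher without it, against 10.1%. Both held for 74 and neither for 626. Without acetate the 48 h libraries had a median log2 CPM of 6.53 ± 0.14 over the raised genes, the 64 h libraries 6.44 ± 0.25 and the 88 h libraries 5.88 ± 0.08 (SD, n = 3). With acetate these medians were 6.64 ± 0.09, 7.09 ± 0.04 and 7.29 ± 0.04. These genes were chosen on the 88 h values, so their course is a description.

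**Figure D3:**
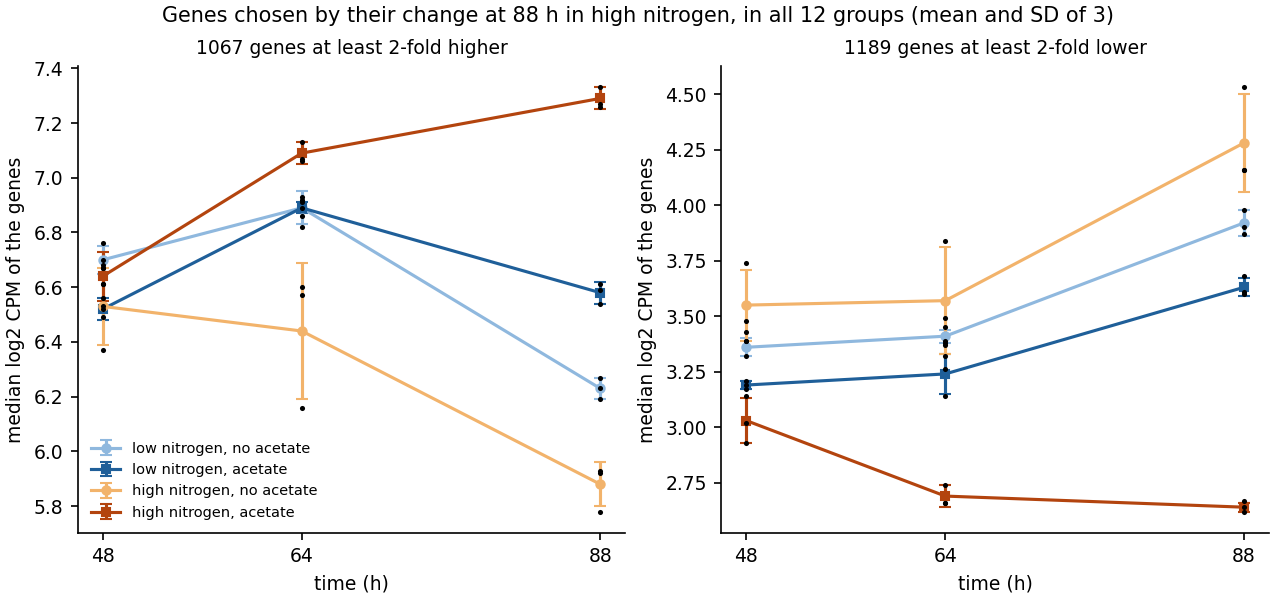
Median log2 CPM of the 1067 raised and the 1189 lowered genes (vertical axes) against time in hours in the 4 media, with the mean and SD of 3 libraries and each library as a black dot. In high nitrogen the raised genes end at 5.88 without acetate and at 7.29 with it, and the low-nitrogen media lie between these values at 88 h.

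In low nitrogen at 88 h acetate had a smaller effect. At least 2-fold changes were called there for 393 higher genes (4.73%) and 252 lower genes (3.03%). Of these, 141 were also raised in high nitrogen (35.9% of the 393 and 13.2% of the raised genes) and 87 also lowered (34.5% and 7.32%). Without acetate the lowered genes stood at a median of 4.16 to 4.53 log2 CPM in high nitrogen and of 3.87 to 3.98 in low nitrogen. With acetate they stood at 2.62 to 2.67 and at 3.6 to 3.68, an opposite order of the media that the choice of the genes on the high-nitrogen libraries favours.

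The difference between the effects was tested gene by gene with interaction terms. Against 48 h, 5640 genes differed (67.8%), 2811 with a higher effect at 88 h (33.8%) and 2829 with a lower one (34.0%). Against 64 h, 4343 differed (52.2%), 2355 higher (28.3%) and 1988 lower (23.9%). Against low nitrogen at 88 h, 5236 differed (63.0%), 2507 higher (30.2%) and 2729 lower (32.8%). With library totals alone these splits were 1789 to 3897, 1480 to 2948 and 1263 to 4535. The design text gives yeast extract for low nitrogen alone, and whether the high-nitrogen medium held it is not stated in the sources used here.

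Genes that differed with acetate everywhere else in the series were then followed into this comparison. In all 5 other comparisons of acetate with none, 46 genes were at least 2-fold higher, a choice that uses none of the 6 libraries compared here. In high nitrogen at 88 h, 24 of the 46 were called higher, 6 lower and 16 not called, against 38.8% and 36.8% of all genes. At least 2-fold changes were called for 19 in the same direction (12.8% of all genes were raised) and for 4 in the opposite direction (14.3%). Their median log2 fold change was 2.17 to 2.7 in the comparisons that chose them, which the choice inflates, and 0.47 here. By the tests of the differences the effect at 88 h in high nitrogen was lower than that at 48 h for 37 of the 46 (34.0% of all genes), than that at 64 h for 42 (23.9%) and than that in low nitrogen for 35 (32.8%), which the choice of the genes on those other effects favours. The median of their log2 CPM was 5.67 to 5.79 with acetate and 4.75 to 4.84 without, so the groups did not overlap. In high nitrogen with acetate that median had been 8.01 to 8.35 at 48 h and 7.41 to 7.48 at 64 h.

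The 4 genes lowered here and raised in the 5 others were mRNA_1339 (log2 fold change -1.39), mRNA_1864 (-1.05), mRNA_2908 (-3.28) and mRNA_6255 (-1.27), named after their values were seen. The opposite list held 17 genes at least 2-fold lower in all 5 other comparisons. Here 6 of the 17 were called higher, 7 lower and 4 not called, and their median log2 fold change was 0.09. At least 2-fold rises were called for mRNA_1816 (1.14) and mRNA_5233 (1.12), also named after their values were seen, and falls for 6. With library totals alone 21 of the 46 were called higher and 11 lower, and 2 of the 17 higher and 8 lower, with medians of 0.01 and -0.37. On that scale a 2-fold rise was called for 0 of the 17 and a 2-fold fall for 7, and mRNA_1816 had a log2 fold change of 0.67.

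**Figure D4:**
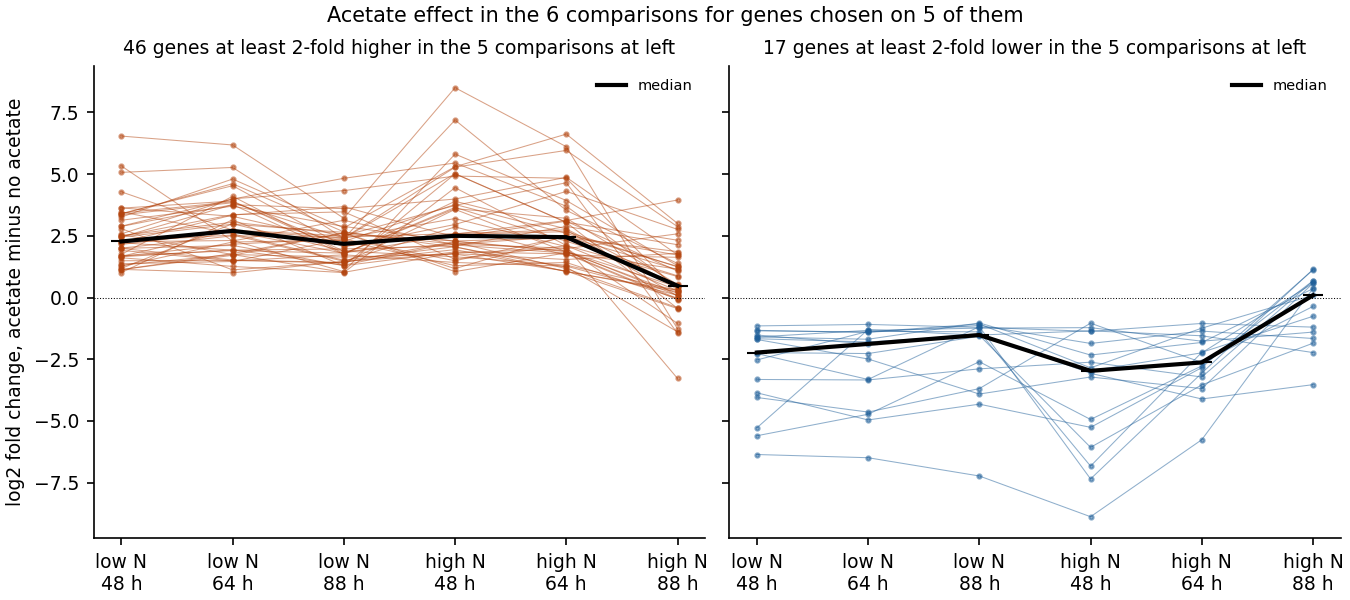
Log2 fold change with acetate (vertical axis) in the 6 comparisons of the series for 46 genes at least 2-fold higher (left) and 17 genes at least 2-fold lower (right) in all of the first 5, with a thin line per gene and a thick line at the median. In high nitrogen at 88 h the medians are 0.47 and 0.09.

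The named differences between effects were those of genes whose acetate response in high nitrogen at 88 h stood apart from another time or medium. mRNA_1581 (protein 9949, scaffold 11, 651714 to 653081, 8 exons, coding length 318 bp) had 817, 781 and 652 CPM without acetate and 1020.4, 1004 and 884 CPM with it at 88 h. The log2 fold change of 0.37 (SE 0.19) did not pass edgeR's test (adjusted p = 0.0741), and with library totals alone it was -0.10. With acetate in high nitrogen the gene had stood at 1.90 to 2.23 CPM at 48 h and at 12.0 to 20.1 CPM at 64 h. With acetate in low nitrogen at 88 h it stood at 5.21 to 7.78 CPM. Without acetate it lay between 545 and 1089 CPM in all 9 high-nitrogen libraries. Its effect at 88 h in high nitrogen exceeded that at 48 h by 9.25 (SE 0.32, edgeR adjusted p = 1.73e-19), that at 64 h by 6.13 (SE 0.29) and that in low nitrogen by 7.60 (SE 0.30).

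The opposite course was that of mRNA_6255 (protein 14623, scaffold 6, 365616 to 367386, 5 exons, coding length 1500 bp). With acetate in high nitrogen the 48 h libraries held 1483, 1587 and 1973 CPM, the 64 h libraries 493, 469 and 511 CPM, and the 88 h libraries 4.11, 3.64 and 3.72 CPM. Without acetate it stood at 8.04, 12.7 and 6.54 CPM at 88 h, above all 3 acetate libraries. The log2 fold change at 88 h was -1.27 (SE 0.24, edgeR adjusted p = 2.83e-05). In low nitrogen with acetate it still had 107 to 141 CPM at 88 h. Its effect at 88 h differed from that at 48 h by -9.78 (SE 0.37) and from that at 64 h by -7.38 (SE 0.35) on the log2 scale.

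Against 48 h the other named genes were mRNA_1816 and mRNA_7148. mRNA_1816 (protein 10184, scaffold 12, 282501 to 284889) had 9.04, 11.0 and 9.65 CPM without acetate and 25.5, 22.2 and 18.2 CPM with it at 88 h, against 61.5 to 113 CPM without and 0.439 to 0.593 CPM with acetate at 48 h. The difference of effects was 8.49 (SE 0.45, edgeR adjusted p = 9.85e-16). mRNA_7148 (protein 15516, scaffold 7, 995843 to 998090) went the other way, with 44.4, 36.8 and 44.7 CPM without acetate and 3.19, 3.77 and 4.11 CPM with it at 88 h. At 48 h it had 3.8 to 4.66 CPM without and 101 to 128 CPM with acetate, a difference of effects of -8.23 (SE 0.29, edgeR adjusted p = 1.73e-19).

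Against 64 h they were mRNA_4821 and mRNA_2908. mRNA_4821 (protein 13189, scaffold 3, 1089374 to 1091580) had 5.04, 11.3 and 5.18 CPM without acetate and 29.8, 30.5 and 21.6 CPM with it at 88 h, whereas at 64 h it had 16.1 to 38.4 CPM without and 1.86 to 2.86 CPM with acetate (difference 5.75, SE 0.52, edgeR adjusted p = 8.22e-10). mRNA_2908 (protein 11276, scaffold 15, 512850 to 515031) had 348, 147 and 379.9 CPM without acetate and 33.6, 28.2 and 28.8 CPM with it. Replicate 2 was the lowest of its group and still lay above every acetate library. At 64 h the order was the opposite, with 23.9 to 47.8 CPM without and 96.9 to 187 CPM with acetate (difference -5.33, SE 0.46, edgeR adjusted p = 4.06e-10).

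Against low nitrogen they were mRNA_6044, mRNA_5861 and mRNA_4664. mRNA_6044 (protein 14412, scaffold 5, 1510436 to 1511474) had 1.93, 3.67 and 2.06 CPM without acetate and 108, 77.6 and 65.9 CPM with it in high nitrogen, against 1.02 to 2.76 CPM in the 6 low-nitrogen libraries of 88 h. Its effect grew with time in high nitrogen, from 1.50 at 48 h to 2.65 at 64 h and 5.02 at 88 h on the log2 scale, and the last exceeded the first by 3.52 (SE 0.44) and the second by 2.37 (SE 0.38). The difference from low nitrogen was 5.92 (SE 0.42, edgeR adjusted p = 2.88e-12). mRNA_5861 (protein 14229, scaffold 5, 1105736 to 1108814, 19 exons) was at 2489 to 2675 CPM with acetate in low nitrogen at 88 h. In high nitrogen it had 80.8, 31.3 and 70.9 CPM without acetate and 15.8, 15.0 and 16.2 CPM with it (difference of effects -8.63, SE 0.41, edgeR adjusted p = 8.34e-16).

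The largest fall of all tested genes was that of mRNA_4664 (protein 13032, scaffold 3, 726473 to 727733, 2 exons, coding length 1125 bp). It had 1022, 213 and 825 CPM without acetate and 8.96, 7.19 and 6.96 CPM with it. Replicate 2 was again the lowest of its group, and the groups did not overlap. The log2 fold change was -6.49 (SE 0.36, edgeR adjusted p = 7.19e-15). In high nitrogen without acetate the gene had stood at 12.4 to 14.7 CPM at 48 h and at 678 to 1071 CPM at 64 h. In low nitrogen it stayed between 1.13 and 12.7 CPM in all 18 libraries, and the difference of effects at 88 h was -6.34 (SE 0.50, edgeR adjusted p = 2.71e-11).

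**Figure D5:**
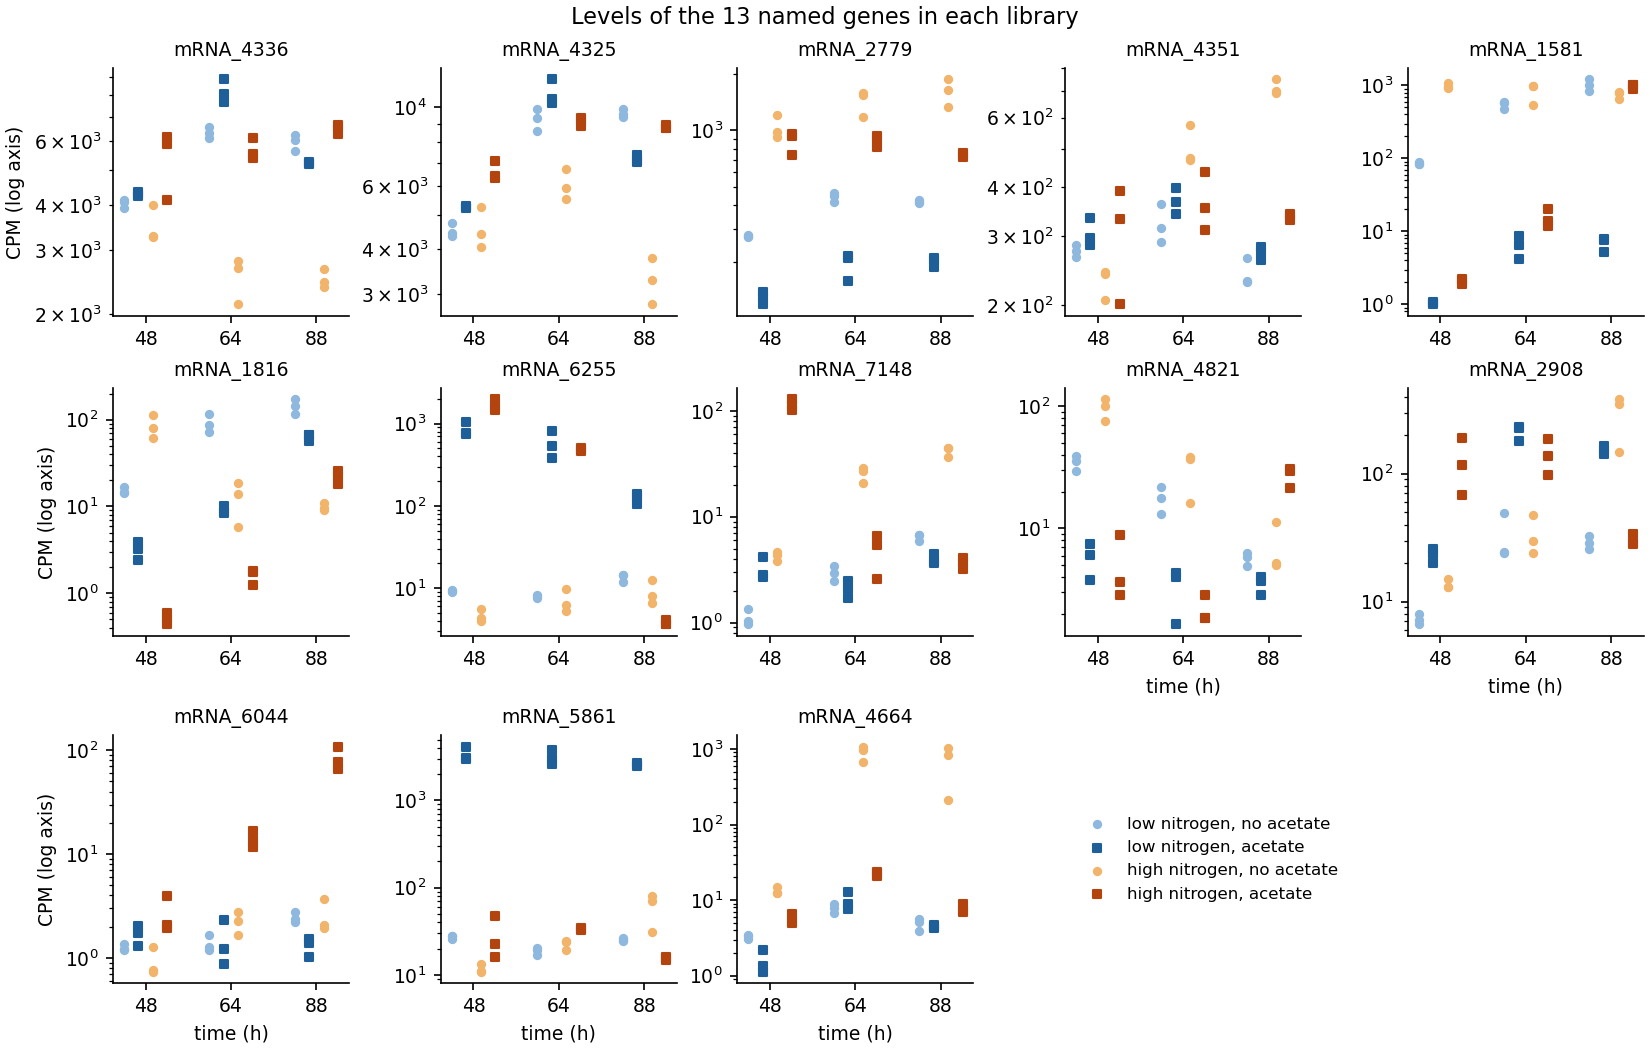
Level in CPM (vertical log axis) of the 13 named genes in each of the 36 libraries, by time in hours, with colours for the 4 media. At 88 h in high nitrogen mRNA_1581 lies between 652 and 1020.4 CPM with and without acetate, and mRNA_4664 between 213 and 1022 CPM without acetate against 6.96 to 8.96 CPM with it.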

How the data were processed

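Counts per gene were deposited for each library. Per the submitters' processing notes reads went through STAR 2.7.10a, Subread 2.0.4 with featureCounts, Trimmomatic 0.39, MultiQC 1.9 and FastQC 0.11.9, whose order and settings are not given. Per the labels' protocols libraries came from a stranded kit (Watchmaker), read from both ends for 151 cycles on 1 NovaSeq X Plus lane. The sample description speaks of a per-million unit, but the deposited counts are whole numbers with unequal totals and were used as raw counts. The strand setting and the treatment of reads with several matches are not given in the sources used here. The 940 genes with exons overlapping a neighbour on the same strand may share reads.

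In R 4.3.3, edgeR 4.0.16 was fitted to all 36 libraries (filterByExpr, TMM, 1 mean per group, quasi-likelihood F-test). P-values were adjusted by Benjamini-Hochberg over the 8314 genes of each contrast, and genes were called at adjusted p below 0.05. The SE is the absolute log2 fold change divided by the square root of F. Log2 CPM used a prior count of 2. A level of 3 counts was 0.0497 to 0.151 CPM in the 6 libraries. P-values measure the spread between replicate cultures, which came from 3 colonies. The fit took 1 estimate of that spread per gene over all 12 groups. In the groups compared the median SD was 0.179 without acetate and 0.067 with it. With only these groups fitted, edgeR's adjusted p for the acetate effect was 3.26e-05 for mRNA_4336 and 6.95e-05 for mRNA_4325. For mRNA_2779 it was 0.000164 and for mRNA_4351 2.74e-05. The labels do not say outright whether samples of several times share a flask. As described, 3 colonies with 4 flasks each give fewer flasks than the 36 libraries, so flasks would have been sampled more than once. The tests of differences between times treated all libraries as independent. The script was tested on simulated data with few changed genes, as many higher as lower, which gives no check of the scaling in these data.

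Because 0 catalogue identifiers matched the reference gene table (of strain NP11), the 6 pathway lists had no members and were not used, and no sequence was printed. The naming rule gives 2 genes each way per contrast. For the acetate effect these are the largest RPKM differences among called, 2-fold, non-overlapping genes. For differences between effects they are the largest log2 values among called genes with at least 10 CPM in the highest group and no same-strand overlap. Members and lists were chosen with earlier results of these data known. Numbers were not taken as pairs, since the labels do not say that a replicate number marks a colony. Same-numbered samples of the 2 groups deviated together with correlations of -0.016, 0.028 and 0.172, which are too few to decide on pairing. Alternatives were DESeq2 1.42.0, RLE factors, library totals alone, no filter, at least 10 CPM in 3 libraries, a replicate block, fits of the compared groups only, and each library left out in turn. Leaving out pairs of libraries together was added after seeing the data.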

Additional observations from a re-analysis of the deposited data

Results flagged for a closer look

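These results were singled out because the acetate effect in high nitrogen at 88 h differed from another acetate effect by edgeR's interaction test. The test called 5640 genes against 48 h, 4343 against 64 h and 5236 against low nitrogen at 88 h. Among named genes the differences of log2 effects against 48 h were 9.25 for mRNA_1581, 8.49 for mRNA_1816, -9.78 for mRNA_6255 and -8.23 for mRNA_7148. Against 64 h they were 6.13 for mRNA_1581, 5.75 for mRNA_4821, -7.38 for mRNA_6255 and -5.33 for mRNA_2908. Against low nitrogen they were 7.60 for mRNA_1581, 5.92 for mRNA_6044, -8.63 for mRNA_5861 and -6.34 for mRNA_4664. Leaving out each library in turn left every 1 of these 12 gene values called in the same direction.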

How the results depend on the processing

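The values for which the 13 genes were named kept their direction and their side of the threshold under all alternatives run. The acetate effect of mRNA_1581 at 88 h, which did not pass the test, was -0.10 with library totals alone. Of the counts, 367 of 380 stayed within 1.5 times the reported count. The 13 that moved more all came from library totals alone, which has no correction for composition. The acetate effect then gave 1642 genes higher and 4850 lower, of them 447 and 2252 at least 2-fold. Against 48 h, 1789 genes were higher, 786 of them 2-fold. Against 64 h, 1480 were higher, 424 of them 2-fold, and 1039 were 2-fold lower. Against low nitrogen 1263 were higher and 4535 lower, 376 and 2313 of them 2-fold. DESeq2 and RLE factors gave counts within that limit. With each library left out in turn, 5998 to 6139 genes were called for the acetate effect, 949 to 1107 at least 2-fold higher and 1113 to 1303 lower. Alternatives chosen after seeing the data left out a pair of libraries together. Without replicate 2 (no acetate, 88 h) and replicate 3 (acetate, 48 h) 5645 genes were called against 48 h, and without replicate 2 of the no-acetate groups at 88 and 64 h 4321 against 64 h. The replicate block called 6283 genes with all 36 libraries, and 5647 against 5850 without the block when only the 6 libraries were fitted. It changed no other call by over 1.5 times. Not every sample correlated best with its own number, but so few correlations cannot decide whether the numbers mark pairs. Depth was 15297137 to 63311529 counts in the 6 libraries, and genes under 1 CPM rest on few counts.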
